A study of Ovis aries with 8 samples.

Results

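Myostatin, its close relatives the activins, and the transcription factors of the muscle lineage were examined in perirenal adipose tissue (kidney fat) of Callipyge lambs. The gene group holds MSTN, INHBA, FST, ACVR2A, ACVR2B and ACVR1C, which encode ligands, an inhibitor and receptors, and MYF5, MYOD1, MYOG and MYF6, which encode myogenic factors. It was chosen by gene symbol with results of the same comparison already known: MSTN and MYF5 had passed a P of 0.05 and a fold change of 1.5, read higher in Callipyge lambs. Their genotype differences are therefore given as descriptions, with no test. The array's annotation gave a probe set to 9 of the 10 genes, 11 probe sets of the 24016 tested, and 9 of the 9155 genes with a symbol. ACVR1C had none and was not analysed here.

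The samples were 4 NmatCpat lambs, which carried the Callipyge mutation on the chromosome inherited from the sire, and 4 NmatNpat lambs, which did not carry it. All were male, 12 weeks old and crosses of Dorset, Suffolk and Rambouillet sheep. Kidney fat of every lamb was hybridised to its own Affymetrix Bovine Genome array. A probe set is a group of short oligonucleotides that together read 1 transcript, and these were designed on cattle sequence, so a sheep transcript that differs under the probes can read low. The comparison addressed whether the mutation, known for enlarging certain skeletal muscles, also acts on transcription in fat.

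Myostatin is a secreted protein of the TGF-beta family, made mainly by skeletal muscle, that limits muscle growth, and animals without working myostatin are heavily muscled and lean. Myostatin and the activins bind the type II receptors ACVR2A and ACVR2B on the cell surface. These pair with type I receptors and pass the signal on through SMAD2, SMAD3 and SMAD4, while follistatin, the product of FST, binds the ligands outside the cell and blocks them. MYF5, MYOD1, MYOG and MYF6 are basic helix-loop-helix transcription factors that commit cells to the muscle lineage and drive their differentiation. In mice, precursors that have expressed Myf5 also give rise to brown fat cells.

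The tissue read as fat in every lamb. Over 11 adipocyte genes the intensities summed to 51121 to 57238 in NmatCpat lambs, against 52185 to 54407 in NmatNpat lambs (exact permutation test, two-sided, p = 0.51). ADIPOQ, the adipocyte hormone adiponectin, had a log2 level of 13.16 ± 0.15 in NmatCpat lambs, against 13.02 ± 0.17 in NmatNpat lambs (SD, n = 4 each). Median intensities of the 8 arrays ran from 65.3 to 72.6. The array of NmatNpat animal 1 stood apart in neuron genes, with a summed intensity over 10 of them of 26395, against 2291 to 3059 on the other arrays. The array of NmatCpat animal 4 read MYL2, a myosin light chain of muscle, at 7.03 on the log2 scale, against 0.96 to 3.63 on the others. Of all 24016 probe sets 943 passed both thresholds (limma, P of at most 0.05 and more than 1.5-fold). None did so after Benjamini-Hochberg adjustment in limma, with a smallest adjusted p = 0.085, though 1118 reached the unadjusted P alone. Leaving out single lambs gave 0 to 2 adjusted calls, the 2 without NmatNpat animal 2.

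MSTN was read by a brighter and a dimmer probe set. On the brighter one the deposited intensities were 58.1, 29.8, 50.4 and 21.1 in NmatCpat animals 1 to 4, against 25.6, 11.2, 5.7 and 2.3 in NmatNpat animals 1 to 4. The genotypes overlapped by 1 pair of lambs, since NmatNpat animal 1 read above NmatCpat animal 4. After quantile normalization the log2 level averaged 5.21 ± 0.64 in NmatCpat and 3.0 ± 1.38 in NmatNpat lambs (SD, n = 4 each), a difference of 2.21 with a standard error of 0.68. In a whole tissue, more or fewer cells of a type and more or less RNA per cell cannot be told apart. This probe set was dim, with a mean level at the 22.4th percentile of all probe sets tested. Readings at that level scattered widely: among the 6004 dimmest probe sets the median within-genotype SD was 1.07 on the log2 scale, and among the 6004 brightest it was 0.23.

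On the dimmer MSTN probe set the intensities were 57.6, 3.9, 28.5 and 23.2 in NmatCpat lambs, against 17.2, 16.9, 10.5 and 4.7 in NmatNpat lambs. NmatCpat animal 2 was the lowest of all 8 here, though it read well within its genotype on the brighter probe set, and the other 3 NmatCpat lambs lay above every NmatNpat lamb. NmatCpat animal 1 was the highest lamb and NmatNpat animal 4 the lowest of its genotype on both probe sets. The log2 level averaged 4.33 ± 1.55 in NmatCpat and 3.45 ± 0.82 in NmatNpat lambs (SD, n = 4 each). The difference was 0.88 with a standard error of 0.77, and it did not pass P and fold. It was 0.40 to 1.61 with single lambs left out, lowest without NmatCpat animal 1, 0.50 without NmatNpat animal 4 and highest without NmatCpat animal 2.

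MYF5, the earliest of the myogenic factors in the embryo, was close to the bottom of the array's range. Its intensities were 7.7, 6.4, 16.1 and 16.5 in NmatCpat animals 1 to 4, against 1.0, 1.5, 3.7 and 2.1 in NmatNpat animals 1 to 4. Every NmatCpat lamb read above every NmatNpat lamb, but only NmatCpat animals 3 and 4 exceeded an intensity of 16. The log2 level averaged 3.43 ± 0.71 in NmatCpat and 0.91 ± 0.89 in NmatNpat lambs (SD, n = 4 each), a difference of 2.52 with a standard error of 0.51. The mean level of the MYF5 probe set lay at the 3.89th percentile of the probe sets tested.

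The differences of both genes depended on how low intensities were treated. With 16 added to every intensity before the log, which compresses differences among dim values, MSTN differed by 1.06 (standard error 0.29) on its brighter and 0.53 (standard error 0.34) on its dimmer probe set, and MYF5 by 0.59 (standard error 0.17). The brighter MSTN probe set and MYF5 passed P and fold on both scales. Of the 9 measured genes these 2 passed, both higher in NmatCpat lambs. Of all 9155 genes, each read on its brightest probe set, 2.91% passed in either direction and 1.39% passed as higher, and with the offset 2.36% passed in either direction. Of all 24016 probe sets 3.93% passed, 2.04% as higher and 1.88% as lower. In 1.38% of the 9155 genes every NmatCpat lamb read above every NmatNpat lamb, as in MYF5, and in 2.84% the genotypes were separated in one direction or the other. Because the gene group was chosen with this comparison known, nothing is read from these counts.

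**Figure D1:**
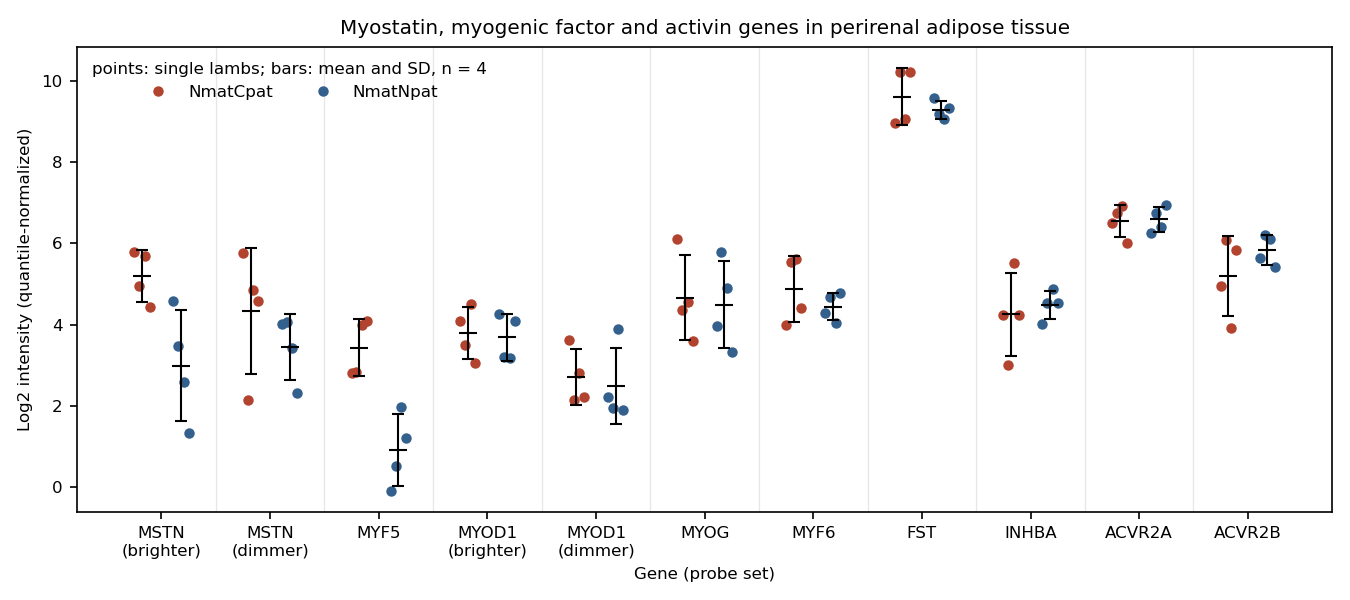
Quantile-normalized log2 intensity (vertical axis) of the 9 measured genes and their 11 probe sets, NmatCpat lambs in red and NmatNpat lambs in blue. Points are single lambs, and bars give mean and SD over the 4 lambs. MYF5 is separated between the genotypes, with NmatCpat lambs between 2.81 and 4.09 and NmatNpat lambs between -0.08 and 1.97, and MSTN overlaps by 1 pair of lambs on its brighter probe set.

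**Figure D2:**
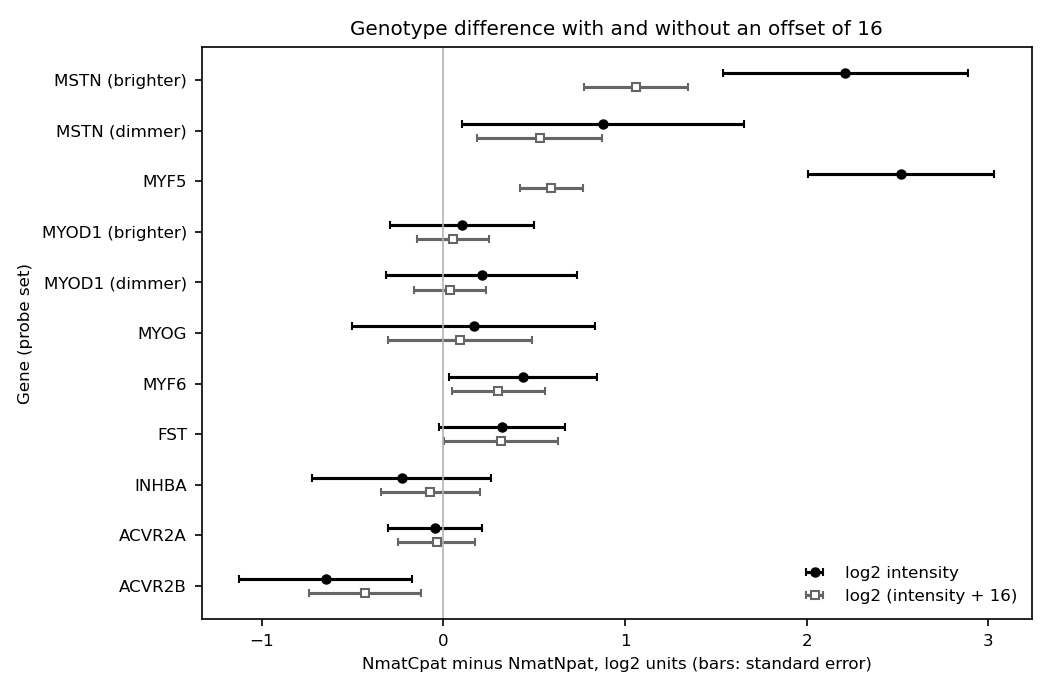
Difference between NmatCpat and NmatNpat lambs (horizontal axis, log2 units) for each probe set, with filled points for log2 intensity and open squares for the log2 of the intensity plus 16. Bars are limma's standard errors. The MYF5 difference is 2.52 without and 0.59 with the offset, while that of FST is 0.32 on both scales.

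The other 3 myogenic factors overlapped between the genotypes. MYOG, which drives the fusion and differentiation of muscle precursors, had intensities of 72.5, 20.4, 23.4 and 12.1 in NmatCpat lambs, against 16.8, 54.9, 29.5 and 9.7 in NmatNpat lambs. Its highest lamb was NmatCpat animal 1 and its next NmatNpat animal 2, so that the spread within each genotype was wider than the distance between them. This left a log2 difference of 0.17 (95% interval -1.38 to 1.71). Its direction turned with single lambs, to -0.31 without NmatCpat animal 1, -0.0071 without NmatNpat animal 1 and -0.23 without NmatNpat animal 4, and it was 0.60 without NmatNpat animal 2.

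MYF6, also called MRF4, is the myogenic factor of mature muscle fibres, and its intensities were 16.9, 45.4, 47.9 and 20.6 in NmatCpat lambs, against 20.8, 25.4, 16.1 and 26.0 in NmatNpat lambs. NmatCpat animals 2 and 3 read above all other lambs, and the remaining 6 were intermingled. The log2 level averaged 4.89 ± 0.81 in NmatCpat and 4.45 ± 0.34 in NmatNpat lambs (SD, n = 4 each), a difference of 0.44 with a 95% interval from -0.50 to 1.38. It was 0.20 to 0.74 with single lambs left out, lowest without NmatCpat animal 3 and highest without NmatCpat animal 1. In sheep assembly ARS-UI_Ramb_v3.0, MYF6 is the direct neighbour of MYF5, and the lambs' order differed between them: NmatCpat animal 4, the highest lamb in MYF5, read 20.6 in MYF6, within the NmatNpat range.

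MYOD1, which can turn fibroblasts into muscle cells, was read by a pair of dim probe sets. The brighter one had intensities of 17.9, 10.4, 22.7 and 8.2 in NmatCpat lambs, against 20.3, 9.4, 8.8 and 16.5 in NmatNpat lambs, with a log2 difference of 0.10 and a 95% interval from -0.81 to 1.02. That difference was -0.14 without NmatCpat animal 3 and 0.34 without NmatCpat animal 4. The dimmer one stayed under an intensity of 16 in all 8 lambs and differed by 0.21, with a 95% interval from -1.01 to 1.43. The order of the lambs was not shared: NmatNpat animal 3 was the highest lamb on the dimmer probe set, at 14.3, and the next to lowest on the brighter one. The intervals of MYOG and of the dimmer MYOD1 probe set include 2-fold differences in either direction, so that a change of that size was not detectable there.

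FST was the bright transcript of the group, with a mean level at the 91.4th percentile of the probe sets tested. The intensities were 484.3, 1213.5, 532.1 and 1204.4 in NmatCpat animals 1 to 4, against 757.8, 575.1, 542.2 and 646.1 in NmatNpat animals 1 to 4. NmatCpat animals 2 and 4 read above all NmatNpat lambs and NmatCpat animals 1 and 3 below all of them. The means were 9.61 ± 0.70 in NmatCpat and 9.29 ± 0.22 in NmatNpat lambs on the log2 scale (SD, n = 4 each), a difference of 0.32 with a 95% interval from -0.48 to 1.12. Among the 6004 brightest probe sets the median SD, pooled over both genotypes, was 0.23. The FST SD of NmatCpat lambs alone lay above that value, and the SD of NmatNpat lambs lay near it. The difference was 0.12 without NmatCpat animal 2 or animal 4 and 0.54 without NmatCpat animal 1.

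INHBA encodes the chain that pairs with itself to form activin A, and its intensities were 20, 7.3, 45.1 and 18.4 in NmatCpat lambs, against 17.3, 22.9, 28.7 and 22.0 in NmatNpat lambs. The highest and the lowest of the 8 lambs were both NmatCpat, animal 3 and animal 2. The log2 level averaged 4.25 ± 1.03 in NmatCpat and 4.48 ± 0.35 in NmatNpat lambs (SD, n = 4 each). The difference was -0.23 with a 95% interval from -1.37 to 0.91, and it was 0.18 without NmatCpat animal 2 and -0.66 without NmatCpat animal 3.

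Of the type II receptors, ACVR2A had intensities of 93.3, 105.8, 120.0 and 62.3 in NmatCpat lambs, against 81.2, 107.2, 85.6 and 119.7 in NmatNpat lambs. On these intensities the NmatNpat range lay within the NmatCpat range. The log2 difference of -0.05 had the narrowest interval among the measured genes, from -0.64 to 0.55. A 2-fold difference in either direction lies outside it. The direction of this small difference was not stable, since it was positive under 4 of 18 alternative settings.

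ACVR2B had intensities of 32.6, 65.1, 15.2 and 55.3 in NmatCpat lambs, against 54.2, 73.3, 69.2 and 40.6 in NmatNpat lambs. NmatCpat animals 1 and 3 read below all other lambs, and NmatCpat animals 2 and 4 lay within the NmatNpat range. The log2 level averaged 5.19 ± 0.98 in NmatCpat and 5.84 ± 0.37 in NmatNpat lambs (SD, n = 4 each), a difference of -0.65 with a 95% interval from -1.75 to 0.45. It was -0.22 without NmatCpat animal 3 and -0.94 without NmatCpat animal 2. The pair of NmatCpat lambs that read low in ACVR2B also read low in FST. This was noticed after the values were seen and was not tested.

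The SD among NmatCpat lambs exceeded that among NmatNpat lambs in FST, INHBA, ACVR2A, ACVR2B, MYF6 and MYOD1, while it was smaller in MYOG, MYF5 and MSTN, each on its brightest probe set. These spreads were not tested against each other. No lamb was the highest throughout: NmatCpat animal 3 read highest in 3 of the 9 genes on their brightest probe sets, NmatCpat animal 1 in 2, and NmatNpat animals 1 and 3 in none.

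The rest of the pathway was read from lists of ligands, receptors, binding proteins and proteases, SMAD signalling proteins and SMAD target genes, 63 genes of which 35 had a probe set. GDF11, INHBB, the type I receptor ACVR1B and the inhibitory SMAD7 had none and were not analysed here. Of the 35 genes 1 passed P and fold, the ligand INHA, a count near the 2.91% of all genes given above. The median log2 difference was 0.10, against 0.0046 over all 9155 genes, with 22 genes above 0 and 13 below. In 24 of the 35 genes the 95% interval lay within 1 log2 unit of 0. Among the 51 probe sets of the 35 genes 2 passed, beside 3.93% of all probe sets. The other was a dimmer one of the collagen gene COL1A1 at 1.39, whose brightest probe set differed by 0.07.

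Among the ligands, INHA read higher on average in NmatCpat lambs, at the edge of the P threshold. It encodes the inhibin alpha chain, which pairs with activin chains to form inhibins, antagonists of activin. Its log2 levels were 7.09, 5.68, 6.19 and 6.83 in NmatCpat animals 1 to 4, against 5.82, 5.87, 5.69 and 5.50 in NmatNpat animals 1 to 4. NmatCpat animal 2 lay within the NmatNpat range and the other 3 above it. The difference was 0.73 with a 95% interval from 0.00072 to 1.46 (limma, P = 0.0498, adjusted p = 0.98, two-sided exact permutation test, p = 0.11). It passed in 6 of 18 alternative settings, and of the 8 lambs left out in turn only the omission of NmatCpat animal 2 kept the call. The other 6 ligands did not pass: TGFB1 differed by -0.19, TGFB2 by -0.16 and TGFB3 by 0.49, and the bone morphogenetic proteins BMP2, BMP4 and BMP7 by 0.22, -0.10 and 0.08.

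None of the 8 receptors passed P and fold in limma. TGFBR1, a type I receptor that myostatin can use, had the smallest p of its list. It averaged 6.26 ± 0.30 in NmatCpat and 5.92 ± 0.32 in NmatNpat lambs (SD, n = 4 each), a difference of 0.34 with a 95% interval from -0.20 to 0.87. ACVR1, a type I receptor for activins and bone morphogenetic proteins, was bright and differed by -0.07, with an interval from -0.49 to 0.35. Among the 6 binding proteins and proteases, FURIN, which cleaves the myostatin precursor, differed by -0.17, and FSTL3, a follistatin relative that binds myostatin and activins, by -0.22, with an interval from -0.88 to 0.44. DCN, the proteoglycan decorin, differed by -0.07. FURIN had the smallest p of this list and turned to 0.0051 when all its probe sets were averaged.

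Of the SMADs that carry the myostatin and activin signal none passed. SMAD2 averaged 9.57 ± 0.11 in NmatCpat and 9.41 ± 0.13 in NmatNpat lambs (SD, n = 4 each), a difference of 0.16 with an interval from -0.19 to 0.51. SMAD4, the partner shared by all branches of the family, differed by 0.10, with an interval from -0.29 to 0.50. SMAD3 was more variable and differed by 0.16, with an interval from -1.03 to 1.36. TGIF1, a repressor of SMAD-driven transcription, had the smallest p of its list at a difference of -0.33. Of 9 genes that TGF-beta family signals are known to induce, none passed in limma: CCN2 differed by 0.24, TGFBI by 0.23, the cyclin-dependent kinase inhibitor CDKN1A by 0.12, and CDKN2B, which had the smallest p, by -0.45.

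**Figure D3:**
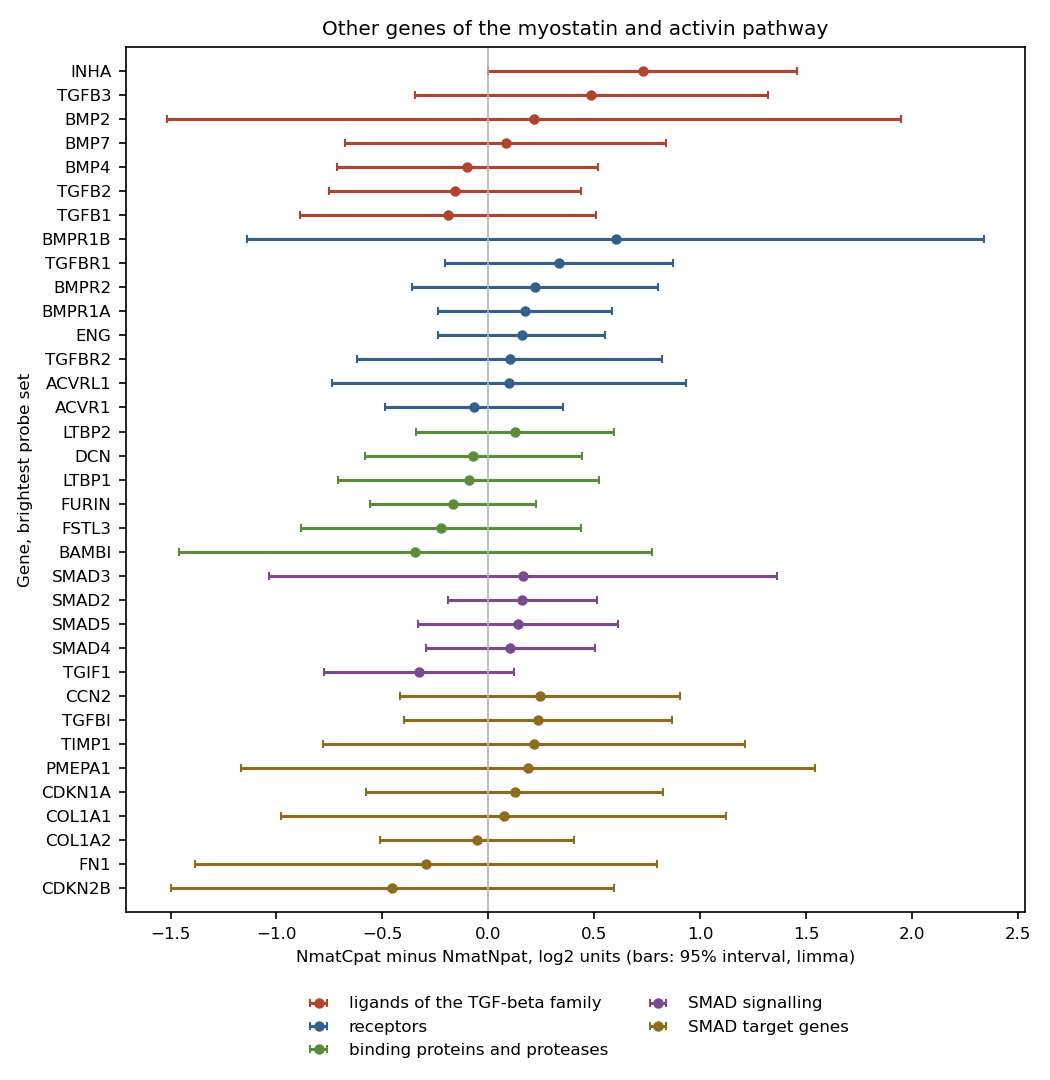
Difference between NmatCpat and NmatNpat lambs (horizontal axis, log2 units) for the 35 measured pathway genes other than the 9 members, each on its brightest probe set and coloured by role. Bars are 95% intervals from limma. The interval of INHA starts at 0.00072, and all other intervals include 0.

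Of 27 further regulators and related genes of the muscle lineage 13 had a probe set. PAX7, which marks muscle precursors, had none and was not analysed here. One of the 13 passed P and fold, again beside 2.91% of all genes, and it was lower in NmatCpat lambs. CHRNA1, the acetylcholine receptor subunit of the neuromuscular junction and a known target of the myogenic factors, had log2 levels of 2.85, 2.03, 4.46 and 4.53 in NmatCpat animals 1 to 4, against 5.04, 4.95, 5.04 and 4.86 in NmatNpat animals 1 to 4. The genotypes did not overlap, as in 2.84% of all genes, and the NmatNpat lambs lay within a narrow range. This probe set was dim, with a mean log2 level of 4.22. That is among the 6004 dimmest probe sets, whose levels reached 4.30 and whose median within-genotype SD was 1.07. The difference was -1.51 with a 95% interval from -2.79 to -0.22 (limma P = 0.0269, adjusted p = 0.98, exact permutation p = 0.0286, two-sided, which is the smallest 4 lambs against 4 allow). The call was lost without NmatCpat animal 1 (-1.30) and without NmatNpat animals 1, 2 or 3 (-1.49, -1.52 and -1.49), where P passed 0.05.

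Of the partners that myogenic factors bind to act on DNA none passed. TCF3 differed by 0.02, with an interval from -0.33 to 0.38, and TCF12 by 0.18. MEF2C, a cofactor of the myogenic factors, averaged 7.87 ± 0.27 in NmatCpat and 8.07 ± 0.14 in NmatNpat lambs (SD, n = 4 each), a difference of -0.20 with an interval from -0.64 to 0.23. ID1, which binds those partners and blocks the myogenic factors, averaged 11.85 ± 0.45 in NmatCpat and 11.40 ± 0.30 in NmatNpat lambs (SD, n = 4 each). Its difference of 0.44 did not pass, with an interval from -0.18 to 1.07. MYMK, a membrane protein of muscle cell fusion, was dim and differed by 0.07. The median over the 13 genes was 0.02.

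Of 7 genes of brown fat precursors and thermogenesis 4 were measured, and none passed in limma. UCP1, the uncoupling protein of brown fat, differed by 0.66, with an interval from -0.66 to 1.98, and PPARGC1A, a coactivator of mitochondrial genes, by 0.36 with the smallest p of the 4. PRDM16, the factor that steers Myf5-expressing precursors towards brown fat in mice, had no probe set and was not analysed here.

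Because MSTN and the myogenic factors belong to skeletal muscle, 32 genes of muscle fibres were set beside them, 23 of which had a probe set. Of the 23 genes 1 passed P and fold, beside 2.91% of all genes. In all 18 read higher in NmatCpat lambs and 5 lower, with a median log2 difference of 0.39. Of all 9155 genes 4638 read higher and 4517 lower, with a median of 0.0046. Only 7 of the 23 muscle genes lay above the median level of the probe sets tested. Their differences were imprecise, with typical 95% limits (median) of ± 1.20 log2 units, against ± 0.59 for all genes. Whether the shared direction exceeds chance was not tested. The muscle gene that passed was lower. ACTN2, an actin-binding protein of the muscle Z-disc, averaged 4.75 ± 0.81 in NmatCpat and 6.09 ± 0.50 in NmatNpat lambs (SD, n = 4 each), a difference of -1.34 with a 95% interval from -2.35 to -0.33 (limma, P = 0.0156, adjusted p = 0.98, two-sided exact permutation test, p = 0.057). Over all 41 probe sets of the 23 genes 3 passed, beside 3.93% of all probe sets: ACTN2, a dimmer probe set of the fast myosin MYH1 at 2.08 and a dimmer one of the calcium pump ATP2A1 at -1.28.

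Among the muscle genes the highest differences were those of MYL2, MYL1 and ACTA1. ACTA1, skeletal muscle actin, read 8.43, 8.53, 8.05 and 9.92 in NmatCpat animals 1 to 4, against 8.39, 6.04, 6.83 and 8.2 in NmatNpat animals 1 to 4. MYL1, a fast myosin light chain, read 3.67, 6.11, 4.09 and 6.89 in NmatCpat lambs, against 3.43, 2.69, 3.91 and 4.33 in NmatNpat lambs. MYL2, a slow myosin light chain, read 1.10, 3.63, 3.08 and 7.03 in NmatCpat lambs, against 0.96, 1.07, 3.20 and 1.80 in NmatNpat lambs. NmatCpat animals 1, 2 and 4 lay above every NmatNpat lamb in ACTA1, and NmatCpat animals 2 and 4 in MYL1 and MYL2. NmatCpat animal 4 was the highest lamb in all 3 genes, and in MSTN it was the lowest of its genotype on the brighter probe set. In MYF5 it was the highest lamb, while NmatCpat animal 3, next to it in MYF5, read 3.08 in MYL2 and 4.09 in MYL1, below 1 NmatNpat lamb in each. The differences of 1.37 in ACTA1, 1.60 in MYL1 and 1.95 in MYL2 did not pass P and fold in limma, with intervals from -0.07 to 2.81, from -0.15 to 3.35 and from -0.76 to 4.67.

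Summed over the 23 muscle genes, intensities were 5994 to 7996 in NmatCpat lambs and 5881 to 9586 in NmatNpat lambs (exact permutation test, two-sided, p = 0.97). NmatNpat animal 4 had the highest sum, and it was also the highest lamb in the sum of 6 smooth muscle genes, at 14599. Both sums include the gene DES. A sum of intensities follows its brightest genes, so the test on the muscle sum says little about dim genes such as MYL1 and MYL2. The brightest gene of the muscle sum was MYH7, the slow myosin heavy chain. Its brightest probe set averaged 11.64 ± 0.33 in NmatCpat and 11.95 ± 0.27 in NmatNpat lambs (SD, n = 4 each). Its other probe sets averaged 3.94 and 4.05 over NmatCpat lambs, against 3.52 and 4.58 over NmatNpat lambs. CKM, muscle creatine kinase, likewise disagreed, with a difference of -0.39 on its brighter and 1.15 on its dimmer probe set. Without NmatCpat animal 4 and NmatNpat animal 1, the lambs with high MYL2 and high neuron genes, the difference was 3.0 in MSTN on its brighter probe set and 1.97 in MYF5. For MSTN this rise follows from the choice of lambs, which were the lowest of the NmatCpat and the highest of the NmatNpat lambs on that probe set. The fall in MYF5, from 2.52, follows from it as well. There the same lambs were the highest of the NmatCpat and the lowest of the NmatNpat lambs. The part of muscle tissue in the dissected fat in these readings was not tested.

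**Figure D4:**
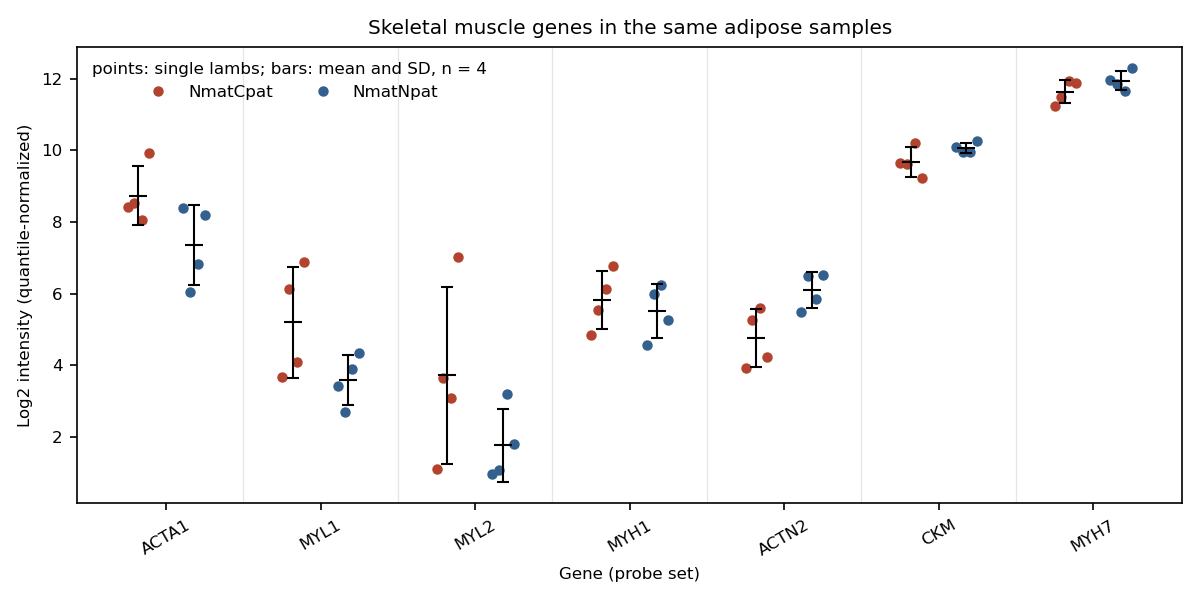
Quantile-normalized log2 intensity (vertical axis) of 7 skeletal muscle genes on their brightest probe sets, NmatCpat lambs in red and NmatNpat lambs in blue. Points are single lambs, and bars give mean and SD over the 4 lambs. NmatCpat animal 4 is the highest lamb in ACTA1, MYL1, MYL2 and MYH1, and ACTN2 is lower in NmatCpat lambs.

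The genes directly next to MSTN in the sheep assembly, C2H2orf88 and ORMDL1, had no probe set and were not analysed here. The nearest measured genes were PMS1 and OSGEPL1, each 2 genes away. Of the 4 nearest protein-coding genes on each side, INPP1, HIBCH, PMS1 and OSGEPL1 were measured, with log2 differences of 0.22, 0.0053, -0.22 and 0.07, none past P and fold in limma. Around MYF5, MYF6 and CCDC59 were measured, and CCDC59 differed by 0.11. These neighbours were looked up after the values of MSTN and MYF5 were known.

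The probe sets whose values over the 8 arrays ran most like those of MSTN were taken from the 7937 brighter ones with a symbol, on the scale with the offset. They were PNN (Pearson r = 0.92), a nuclear protein of splicing, ATP5PB (0.91), a subunit of the ATP synthase, CHID1 (0.90), COX7A2 (0.90), a subunit of cytochrome c oxidase, and AIG1 (0.89). For MYF5 they were HNRNPLL (0.94), a splicing regulator, CRISPLD2 (0.94), a secreted protein, DCTPP1 (0.93), a nucleotide pyrophosphatase, BPHL (0.93) and LIMA1 (0.93), an actin-binding protein. With 8 arrays and this many candidates the values serve as a description. Genotype was not removed before correlating, so a gene can rank high by sharing the genotype difference for which MSTN and MYF5 were chosen. The brighter MSTN probe set and MYF5 themselves correlated at 0.56 on this scale, and at -0.38 within genotype. No gene stood on both lists.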

How the data were processed

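Perirenal adipose tissue of 4 NmatCpat and 4 NmatNpat lambs was profiled on 8 Affymetrix Bovine Genome arrays. Signals were computed by the authors in MAS5 (version not given in the sources used here). The deposited table holds linear intensity for 24128 probe sets, with a lowest value of 0.1. Their columns do not share quantiles, although the study's methods describe quantile normalization, so log2 values were quantile-normalized here. No detection calls were used. The number of arrays limits the precision.

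After 112 control probe sets were left out, a linear model for NmatCpat minus NmatNpat without covariates was applied to 24016 (limma 3.58.1, R 4.3.3), with Benjamini-Hochberg adjustment across the whole table. A call needed P at or under 0.05 and more than 1.5-fold, the thresholds of the study. P-values other than exact ones are limma's, and intervals are at the 95% level. Exact permutation tests ran over 70 arrangements. Of the probe sets 13292 had 1 symbol in the platform annotation, 86 several and 10638 none, and the brightest stood for a gene. Sheep assembly ARS-UI_Ramb_v3.0 served for names and neighbours. Scripts were tested on simulated data.

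The gene group and all lists were chosen with earlier results of these data known. Named genes were the members, in each list the gene with the smallest p and up to 4 calls, preset partners, and the 5 probe sets most like MSTN and MYF5. COL1A1, MYH1 and ATP2A1 dimmer probe sets, neighbouring genes and other genes outside this rule were named after their values were seen. Alternatives were an offset of 16, median-centred arrays, cyclic loess, other variance estimates, array weights, a filter on dim probe sets, the animal number as a block, all probe sets of a gene averaged, an adjusted threshold and each lamb left out. Leaving out NmatCpat animal 4 and NmatNpat animal 1 together was added after seeing the data.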

Additional observations from a re-analysis of the deposited data

Results flagged for a closer look

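Within a genotype, 1 of 52 groups of 4 lambs held a lamb set far apart from the other 3 by Dixon's ratio at its 95% critical value, and chance flags about 1 in 20 groups. On the dimmer MYOD1 probe set NmatNpat animal 3 read 3.89 on the log2 scale, with the next NmatNpat lamb at 2.22 and a ratio of 0.84. The deposited intensity was 14.3, and on the brighter MYOD1 probe set the same lamb read 8.8.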

How the results depend on the processing

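The differences of MSTN and MYF5, chosen from this comparison, were 1.06 to 3.0 and 0.59 to 2.88 over the alternatives that measured them. With the offset of 16 (1.06 and 0.59) both moved by more than the SD between lambs on the scale without it. The offset compresses the differences and the SD of dim values alike, so this move is between unlike scales. The MSTN and MYF5 differences were 1.66 to 2.74 and 2.19 to 2.88 with single lambs left out, lowest for MSTN without NmatNpat animal 4. Above the median level neither was measured, and 0 of the gene group passed there (FST and ACVR2A remained), as 0 did at an adjusted p under 0.05. Counts of calls moved more. Of all probe sets 626 passed without moderated variances, 244 of those above the median level, and 980 to 1054 with single lambs left out, against 943. Adjusted calls numbered 1 with the offset, with trended variances and above the median level, and 0 to 2 with single lambs left out. INHA was not called, leaving 0 pathway genes, with median-centred arrays, cyclic loess, no moderated variances, an adjusted p, or without NmatCpat animal 4 and NmatNpat animal 1, and 0 to 1 passed with single lambs left out. Myogenic regulators past the thresholds numbered 0 without moderated variances, above the median level and after adjustment, 2 with the offset and with trended variances, and 0 to 2 with single lambs left out. Muscle genes numbered 2 with the offset, with trended variances and with all probe sets averaged, 0 after adjustment, and 1 to 3 with single lambs left out. Averaging all probe sets turned PPARGC1A to -0.045 and FURIN to 0.0051, and CD14, a macrophage gene, was -0.095 without the lambs named above. The causes were not tested.

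With the animal number as a replicate block 1124 probe sets passed P and fold and 0 after adjustment, with 2 of the gene group, 0 pathway genes, 2 myogenic regulators and 2 muscle genes. The labels do not say whether same-numbered lambs share anything. Deviations of same-numbered lambs correlated at 0.07, 0.05, 0.18 and -0.01, and animals 1 to 3, but not 4, matched their own number best. With the block the standard error was 0.44 for the brighter MSTN probe set and 0.23 for MYF5, against 0.68 and 0.51 without it. Whether the numbers mark a shared batch or order was not tested. Precision is limited by low intensity, with MYF5 and the dimmer MYOD1 probe set at or near the bottom of the scale, and by 4 lambs per genotype.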
